A study of Mus musculus with 8 samples.

Results

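The cytoplasmic translation initiation factors (eIF), translation elongation factors (eEF), cytoplasmic poly(A)-binding proteins (PABPC) and PABP-interacting proteins (PAIP) were examined in mouse testis RNA-seq. Members were all rows of the gene table whose symbol begins with Eif1 to Eif6, Eef1 or Eef2, Pabpc or Paip, without the 4 eIF2 kinases and Eif2d, which left 72 of 17121 rows. The rule names symbols and no measured value, although the group was proposed with earlier results of these data known. The libraries were labelled N6amt1-SKO (SKO, n = 4) and CTL (n = 4), and both were labelled testis. N6amt1 encodes a methyltransferase that acts with Trmt112 and modifies the translation termination factor eRF1. The labels spell out neither SKO nor the driver of the deletion, the age or the strain, and they do not say whether replicates came from separate animals, so the p-values measure the spread between these libraries only. The extraction protocol names heart ventricles where the tissue label says testis.

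Initiation begins when eIF2, loaded with GTP and the initiator tRNA, joins the small ribosomal subunit together with eIF1, eIF1A, eIF3 and eIF5. The cap-binding protein eIF4E, the scaffold eIF4G and the helicase eIF4A bring the mRNA to that subunit, and PABP on the poly(A) tail binds eIF4G. In elongation, eEF1A delivers aminoacyl-tRNA and eEF2 moves the ribosome along by a codon. Spermatogenic cells store many mRNAs for later translation and carry germ-cell relatives of several of these factors, among them the intronless PABP gene Pabpc2 and the eIF4G relative Eif4g3, which mouse spermatocytes need to leave meiotic prophase.

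The deposited values were read counts multiplied by a factor for each library, with column totals of 94183701 to 103106684, and about 40600000 to 258000000 reads lay behind a library. N6amt1 itself had normalised values of 586, 557, 561 and 625 in SKO libraries 1 to 4, against 475, 433, 629 and 514 in CTL libraries 1 to 4. Its groups overlapped (log2 fold change 0.19, SE 0.17, adjusted p = 0.437, limma), so the whole-gene value did not show a loss of N6amt1 RNA in the libraries labelled SKO. The loss of single exons would not be visible in such a sum, and SKO and CTL below mean libraries so labelled. The 18S ribosomal RNA row held 0.721% to 0.969% of the total in SKO library 4, CTL library 3 and CTL library 4, and 0.173% to 0.273% in the other 5. Cell type markers moved with the groups: 14 of 15 Sertoli cell markers and 5 of 9 spermatogonium markers rose in SKO, whereas 4 of 14 spermatocyte markers fell and 1 rose. Of the peritubular myoid cell markers 4 of 6 rose, of Leydig cell 2 of 8, of endothelial cell 2 of 7 and of macrophage 1 of 8, and none fell. Of 10 round spermatid markers 1 fell, as did 1 of 5 red blood cell markers, and none rose. Summed Sertoli markers ran from 200622 to 383164 in SKO and from 91891 to 191287 in CTL, and summed spermatocyte markers from 535441 to 593508 in SKO and from 699826 to 846720 in CTL. Summed elongating spermatid markers varied widely within both groups, from 153295 to 587212 in SKO and from 80232 to 693430 in CTL. Summed heart muscle markers were 4377 to 6937 in SKO and 2252 to 2916 in CTL, with Actc1 and Nppa in no row and Tnni3 and Tnnt2 called higher. The part of cell makeup in the results below was not tested, and in bulk tissue fewer cells of a type and less RNA per cell cannot be told apart.

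All 72 members passed the filter on low values and together made up 1.92% to 2.24% of a library. At an adjusted p below 0.05 (limma on log2 of the normalised value plus 5, Benjamini-Hochberg over 17066 genes), 14 members were called. 7 members rose in SKO (9.72%), beside 11.9% of all genes tested, and 7 fell (9.72%), beside 7.93% of all genes tested. In both directions the members' share was near that of the whole table. The median log2 fold change of the members was -0.11, against 0.04 over all genes tested, and the largest in size was that of Pabpc6 at -1.03. With median-ratio factors, 5 members rose and 9 fell, beside 1602 and 1657 of all genes, and with plain library totals 13 rose and 2 fell, beside 4885 and 456 of all genes, whereas the main scaling gave 2038 and 1354. Library totals moved the median of all genes to 0.33, and 46 of 72 members lay below the median of all genes under each of the 4 scalings run. A change of scaling shifts all genes by nearly the same amount, so that count could hardly differ between scalings. SKO and CTL values did not overlap for 18 members, 8 higher and 10 lower in SKO, which is 25% of the members beside 26.1% of all genes tested.

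**Figure D1:**
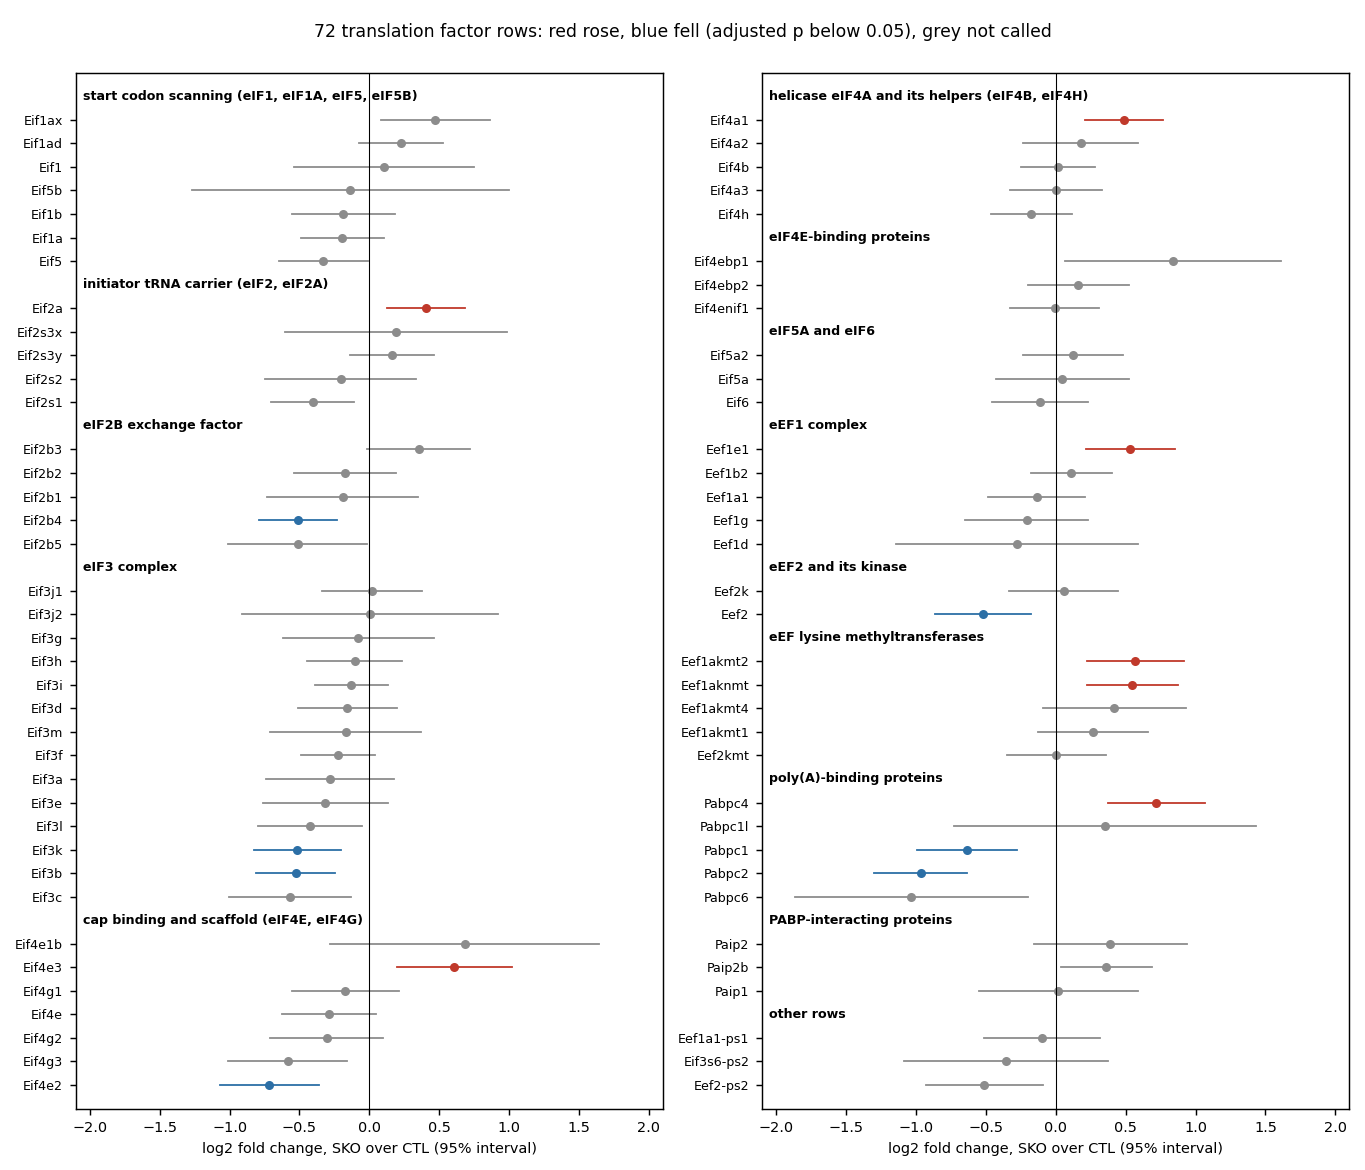
Log2 fold change of SKO over CTL (x axis) with its 95% interval for each of the 72 members (rows), grouped by role and ordered within a role. The 7 red members rose and the 7 blue members fell at an adjusted p below 0.05, and the intervals of the poly(A)-binding proteins spread from Pabpc6 at -1.03 to Pabpc4 at 0.72.

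The poly(A)-binding proteins changed in both directions. Of 5 members with a row, Pabpc1 and Pabpc2 fell and the scarcer Pabpc4 rose, while Pabpc6, about as abundant as Pabpc2, and the scarce Pabpc1l were not called. Pabpc2, the intronless germ-cell PABP, had normalised values of 49533, 57245, 49054 and 40372 in SKO libraries 1 to 4, against 85073, 100127, 92699 and 103348 in CTL libraries 1 to 4. The groups were far apart, with the highest SKO library below every CTL library (1.95-fold lower, log2 fold change -0.97, SE 0.15, adjusted p = 0.0123, limma). Pabpc1, the PABP of most tissues, had 270401, 299373, 283907 and 339553 in SKO, against 414685, 414806, 511292 and 516420 in CTL. These groups also did not overlap (1.55-fold lower, log2 fold change -0.64, SE 0.16, adjusted p = 0.0264, limma). Pabpc4, first described as an inducible PABP of activated T cells, had 2126, 2470, 2763 and 2551 in SKO, against 1418, 1242, 1602 and 1776 in CTL. Every SKO library was above every CTL library (1.65-fold higher, log2 fold change 0.72, SE 0.16, adjusted p = 0.0174, limma). Of the 50-base stretches in Pabpc4 exons, 69.4% also occur elsewhere, in processed copies such as Gm10110, so reads may have been split between them, whereas Pabpc2 and Pabpc6 had no such stretch and Pabpc1 5.2%.

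Pabpc6, another intronless PABP gene, had the largest difference in size of any member and was not called. Its values were 37488, 39400, 46370 and 81027 in SKO, against 67106, 61060, 141122 and 168149 in CTL. SKO library 4 lay above the lower pair of CTL libraries, so the groups overlapped (log2 fold change -1.03, SE 0.37, adjusted p = 0.0755, limma). Within the 5 libraries with less 18S, which hold 3 SKO and 2 CTL libraries, the difference was -0.65 (adjusted p = 0.0177, limma), and with a term for the 18S set it was -0.75 (adjusted p = 0.00533, limma). Pabpc1l, the PABP of oocytes, was low at 133 to 230 in SKO and 43.4 to 227 in CTL, and its groups overlapped.

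Divided by exon length, the order of levels was the same in both groups. Pabpc1 stood at 45613 per kb in SKO and 70994 per kb in CTL, Pabpc2 at 18968 per kb in SKO and 36857 in CTL, and Pabpc6 at 15846 in SKO and 33931 in CTL. Pabpc4 followed far below at 615 per kb in SKO and 375 per kb in CTL, and Pabpc1l was last at 60.4 in SKO and 54.4 in CTL. Pabpc2 and Pabpc6 were neighbours in that order whose library values overlapped within each group. Since Pabpc1 fell and Pabpc4 rose, their log2 ratio within a library averaged -6.91 ± 0.16 in SKO and -8.26 ± 0.10 in CTL (SD, n = 4 each). That ratio was picked after the values were seen and is a description only. The log2 ratio of Pabpc2 to Pabpc1 averaged -2.61 ± 0.31 in SKO and -2.28 ± 0.17 in CTL, a difference of -0.33 that did not pass (exact permutation p = 0.0857, two-sided, adjusted p = 0.257 over 9 pairs).

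The PABP-interacting proteins bind PABP on either side of the balance: Paip1 favours translation, and Paip2 and Paip2b take PABP off the poly(A) tail. None of the 3 was called (limma, 1 at an unadjusted p below 0.05), and all 3 estimates were above 0, with log2 fold changes of 0.02 for Paip1, 0.39 for Paip2 and 0.36 for Paip2b. With median-ratio factors 1 of the 3 estimates was below 0. Paip2b had 7064, 7829, 7164 and 5583 in SKO, against 5809, 5675, 4643 and 5297 in CTL. SKO library 4 alone lay within the CTL range (adjusted p = 0.102, limma).

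**Figure D2:**
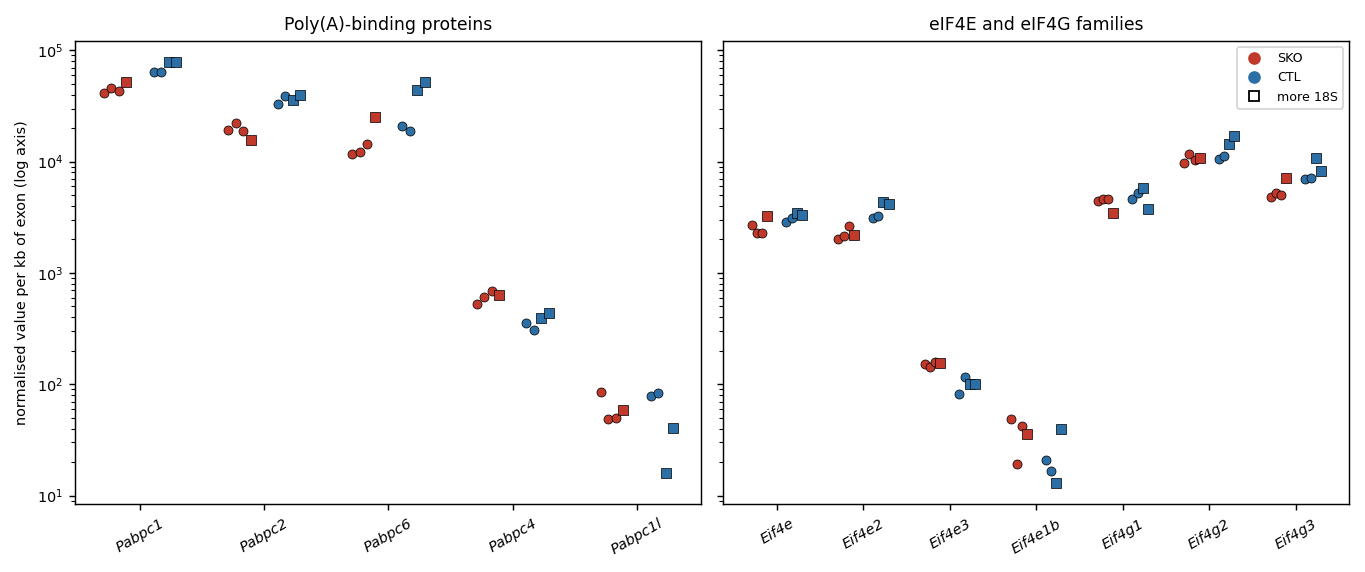
Normalised value per kb of exon (y axis, log) of each library for the PABP family (left panel) and the eIF4E and eIF4G families (right panel), with SKO (red) left of CTL (blue) and squares for the libraries with more 18S. Pabpc1 and Pabpc2 sit lower in SKO and Pabpc4 higher, and Eif4e2 sits lower and Eif4e3 higher in SKO.

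Among the cap-binding and scaffold proteins, the eIF4E relatives moved apart: Eif4e2 fell, Eif4e3 rose, and Eif4e was not called. Eif4e2, also called 4EHP, binds the cap without binding eIF4G and represses translation. It had 15295, 15993, 19737 and 16403 in SKO, against 23274, 24310, 32533 and 31387 in CTL, with no overlap (1.64-fold lower, log2 fold change -0.72, SE 0.16, adjusted p = 0.0184, limma). Eif4e3, a cap-binding relative with an atypical pocket, had 383, 362, 400 and 387 in SKO, against 204, 294, 253 and 253 in CTL. It was higher in every SKO library (1.52-fold, log2 fold change 0.61, SE 0.18, adjusted p = 0.044, limma), and 14.8% of its exon bases overlap Gm20696 on the same strand. Eif4e, the main cap-binding protein, averaged 15864 ± 2750 in SKO and 19203 ± 1640 in CTL (SD, n = 4 each), with overlap and an adjusted p of 0.194 (limma).

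Within libraries, the log2 ratio of Eif4e3 to Eif4e was -5.38, -5.24, -5.10 and -5.65 in SKO, against -6.36, -5.96, -6.35 and -6.28 in CTL. All 4 SKO ratios were above all 4 CTL ratios, a difference of 0.90. The exact permutation p was 0.0286, the smallest that 4 libraries against 4 allow, and it did not pass after adjustment over the 9 pairs (0.257). Eif4e3 against Eif4e2, a ratio picked after the values were seen, averaged -5.44 ± 0.13 in SKO and -6.76 ± 0.29 in CTL.

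By group means per kb the scaffolds were more abundant than the cap-binding proteins. Eif4g2, which lacks the eIF4E-binding region, had 10649 per kb in SKO and 13381 per kb in CTL, Eif4g3 had 5541 in SKO and 8331 in CTL, and Eif4g1 had 4276 in SKO and 4842 in CTL. Eif4g3, needed for male meiosis in mice, had normalised values of 53302, 58060, 55181 and 78640 in SKO, against 77685, 79465, 119496 and 92008 in CTL. SKO library 4 lay just above the lowest CTL library, and the other 3 SKO libraries lay below all CTL libraries (log2 fold change -0.58, SE 0.19, adjusted p = 0.0562, limma). Within the 5 libraries with less 18S the difference was -0.50 (adjusted p = 0.0178, limma). Eif4g1 and Eif4g2 were not called, at -0.17 and -0.31. Eif4e1b, the oocyte eIF4E, was barely present, at 43.0 to 110 in SKO and 29.3 to 90.1 in CTL.

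The eIF4A helicase unwinds the leader of the mRNA. Eif4a1 rose, with 28634, 29927, 32192 and 31715 in SKO, against 21748, 19262, 22233 and 24317 in CTL. All SKO libraries lay above all CTL libraries (1.40-fold higher, log2 fold change 0.49, SE 0.12, adjusted p = 0.0265, limma). A share of 33.3% of its 50-base stretches occurs in copies such as Eif4a-ps4. Its close relative Eif4a2 averaged 17885 ± 2401 in SKO and 15981 ± 3424 in CTL (SD, n = 4 each) and was not called. The log2 ratio of Eif4a2 to Eif4a1 differed by -0.31 between groups (exact permutation p = 0.286, adjusted 0.429). Eif4a3, a helicase of the exon junction complex, and the eIF4A partners Eif4b and Eif4h were not called, with log2 fold changes of 0.00, 0.01 and -0.17.

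The 3 eIF4E-binding proteins, of which Eif4ebp1 and Eif4ebp2 compete with eIF4G for eIF4E, held no call, with 1 at an unadjusted p below 0.05 (limma). Eif4ebp1 had 1449, 1045, 1152 and 818 in SKO, against 895, 997, 436 and 352 in CTL. It was lowest in CTL libraries 3 and 4 and, within SKO, in SKO library 4, which are the 3 libraries with more 18S (log2 fold change 0.84, SE 0.34, adjusted p = 0.109, limma). Without those libraries the difference was 0.35 (adjusted p = 0.167, limma). Eif4ebp2 ran from 8607 to 12392 in SKO and from 8338 to 10544 in CTL, and its log2 ratio to Eif4ebp1 differed by -0.68 between groups (exact permutation p = 0.286, adjusted 0.429). Eif4enif1, which carries eIF4E into the nucleus, was at -0.01.

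eIF3 is the large complex that holds the small subunit open for mRNA. 2 of its 14 members fell and none rose, where 7.93% of all genes tested fell and 11.9% rose. The median log2 fold change of the 14 was -0.20, against 0.04 over all genes tested. All 14 lay below the median of all genes tested under each of the 4 scalings, which shift all genes nearly alike. By the main scaling 12 were below 0, and by library totals 5. Within the libraries with less 18S, Eif3m was at 0.043, above the median of 0.026 over all genes, and the other eIF3 members lay below it. With a term for the 18S set Eif3g was at 0.043 and Eif3j2 at 0.17, above the median of 0.023, and the others lay below it. Eif3b, a core subunit and the most abundant of the 14, had 51884, 52020, 51724 and 53505 in SKO, against 70347, 71239, 87245 and 73672 in CTL. The SKO libraries were almost alike and all CTL libraries stood above them (1.44-fold lower, log2 fold change -0.53, SE 0.13, adjusted p = 0.0227, limma). Eif3k, a peripheral subunit, had 11503, 8717, 9816 and 11719 in SKO, against 15941, 15852, 13922 and 13742 in CTL, again without overlap (1.43-fold lower, log2 fold change -0.52, SE 0.14, adjusted p = 0.032, limma).

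A further pair of eIF3 subunits did not overlap between groups and were not called. Eif3c, a core subunit that contacts eIF1 and eIF5, had 42213, 46924, 44796 and 53430 in SKO, against 53681, 56569, 88269 and 85660 in CTL (log2 fold change -0.57, adjusted p = 0.0665, limma). Its highest SKO and lowest CTL libraries nearly touched. Eif3l, the partner of Eif3k, had 14687, 17485, 18061 and 16954 in SKO, against 18732, 18828, 27340 and 26522 in CTL (log2 fold change -0.43, adjusted p = 0.0967, limma). The other 10 eIF3 members had log2 fold changes between -0.31 for Eif3e and 0.02 for Eif3j1. Eif3j1 and Eif3j2 share 39.8% and 91.8% of their 50-base stretches with other genes, mainly each other, so their split is uncertain.

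eIF2 carries the initiator tRNA and eIF2B reloads it with GTP. Eif2b4, the delta subunit of eIF2B, fell: it had 8196, 6816, 7569 and 7470 in SKO, against 10752, 11901, 10615 and 9513 in CTL (1.42-fold lower, log2 fold change -0.51, SE 0.12, adjusted p = 0.0236, limma). All SKO libraries were below all CTL libraries, and 7.85% of Eif2b4 exon bases overlap Snx17 on the opposite strand. The other 4 eIF2B subunits were not called, among them the catalytic epsilon subunit Eif2b5, which averaged 12299 ± 2279 in SKO and 17904 ± 5157 in CTL (SD, n = 4 each, adjusted p = 0.124, limma). Eif2b3, the gamma subunit, pointed the other way at 0.35 (adjusted p = 0.154, limma).

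Of the eIF2 group, Eif2a rose. Eif2a is a separate single-chain protein that can bring initiator tRNA without eIF2. It had 3230, 3527, 3364 and 3651 in SKO, against 2433, 2445, 2564 and 2979 in CTL, higher in every SKO library (1.32-fold, log2 fold change 0.41, SE 0.13, adjusted p = 0.0483, limma). Eif2s1, the alpha subunit that the stress kinases phosphorylate, had 15552, 15639, 15470 and 12399 in SKO, against 20702, 21249, 18083 and 18052 in CTL. It was lower in every SKO library and just missed the threshold (log2 fold change -0.41, SE 0.13, adjusted p = 0.0579, limma). The X-linked and Y-linked gamma subunits Eif2s3x and Eif2s3y were not called, at 0.19 and 0.16, and per kb Eif2s3y was the more abundant, at 1130 in SKO and 1010 in CTL, whereas Eif2s3x had 379 in SKO and 329 in CTL. Eif2s3x shares 36.2% of its 50-base stretches with other genes.

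None of the 7 scanning factors, which find the start codon and join the subunits, was called, and 2 had an unadjusted p below 0.05 (limma). Eif5, the GTPase activator of eIF2 and the highest of them by the mean over all libraries, averaged 40683 ± 3873 in SKO and 51198 ± 6238 in CTL (SD, n = 4 each, adjusted p = 0.127, limma). Eif1ax had 7360, 7106, 7841 and 5872 in SKO, against 5827, 6132, 3891 and 4671 in CTL, with an overlap by 1 SKO library (log2 fold change 0.47, adjusted p = 0.0806, limma). The log2 ratio of Eif1a to its X-linked relative Eif1ax averaged 0.14 ± 0.28 in SKO and 0.81 ± 0.40 in CTL (exact permutation p = 0.0571, adjusted 0.257). Eif5b, which joins the large subunit, varied most: 22752, 23817, 25057 and 101812 in SKO, against 24104, 26406, 65515 and 48258 in CTL. Of Eif5b exon bases, 16.8% overlap Rev1 on the opposite strand.

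In elongation, Eef2 fell and Eef1a1 was not called. Eef2, the translocase, had 208393, 221253, 226903 and 200098 in SKO, against 265274, 288676, 362205 and 317635 in CTL, without overlap (1.43-fold lower, log2 fold change -0.52, SE 0.15, adjusted p = 0.0418, limma). Eef1a1, the carrier of aminoacyl-tRNA, had 226620, 268428, 260204 and 258057 in SKO, against 238656, 261520, 299207 and 320539 in CTL, with overlap (log2 fold change -0.14, SE 0.16, adjusted p = 0.559, limma). Per kb these were the leading members next to Pabpc1, with Eef1a1 at 101615 in SKO and 112307 in CTL and Eef2 at 64429 in SKO and 92794 in CTL. Of the 50-base stretches of Eef1a1, 59.2% occur in other genes, against 7.86% for Eef2. Eef2k, the kinase that inhibits eEF2, was not called, at 0.06, and the exchange-factor subunits Eef1b2, Eef1d and Eef1g were not called. Eef1e1, which sits in the aminoacyl-tRNA synthetase complex rather than on eEF1A, rose, with 1640, 1590, 1866 and 1749 in SKO, against 1352, 1257, 1080 and 1051 in CTL (1.45-fold higher, log2 fold change 0.53, SE 0.14, adjusted p = 0.0305, limma).

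The lysine methyltransferases of the elongation factors had 2 of 5 members called, both higher, where 11.9% of all genes tested rose. Their median log2 fold change was 0.42, against 0.04 over all genes tested. Eef1akmt2 had 700, 559, 616 and 602 in SKO, against 419, 439, 382 and 419 in CTL (1.48-fold higher, log2 fold change 0.57, SE 0.15, adjusted p = 0.0326, limma). Eef1aknmt, also named Mettl13, which methylates the first residue and a lysine of eEF1A, had 1968, 1966, 1794 and 1933 in SKO, against 1260, 1269, 1130 and 1617 in CTL (1.46-fold higher, log2 fold change 0.55, SE 0.15, adjusted p = 0.0309, limma). For both, every SKO library was above every CTL library. Eef1akmt4 was also higher in every SKO library, at 167 to 191 against 102 to 161 in CTL, and was not called (adjusted p = 0.213, limma). Eef2kmt, which acts on eEF2, was not called, at 0.00. Eif5a, the factor that relieves stalled ribosomes, averaged 47049 ± 6852 in SKO and 46572 ± 12751 in CTL (SD, n = 4 each, adjusted p = 0.904, limma). Neither its relative Eif5a2 nor Eif6, which keeps the ribosomal subunits apart, was called, at 0.12 and -0.11. The 3 pseudogene rows among the members, Eef1a1-ps1, Eef2-ps2 and Eif3s6-ps2, were not called (limma, 1 at an unadjusted p below 0.05).

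**Figure D3:**
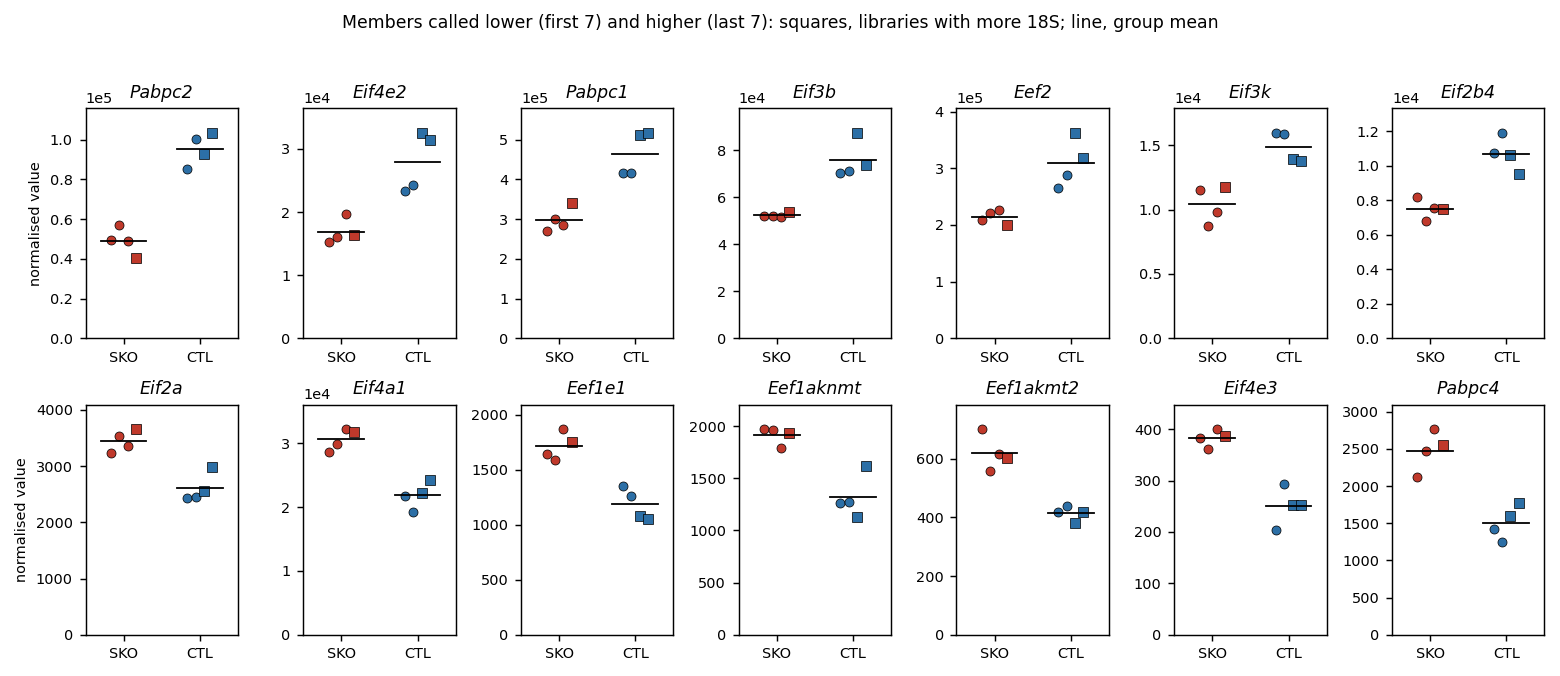
Normalised values (y axis, from 0) of the 14 called members in each library, with SKO (red) left of CTL (blue), squares for libraries with more 18S and a line at each group mean. In the upper row all SKO libraries lie below all CTL libraries, from Pabpc2 to Eif2b4, and in the lower row all lie above, from Eif2a to Pabpc4.

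Start-site sequence was at hand for 51 member genes in 66 windows of 300 bases, from 250 before to 50 after the start (RefSeq, GRCm38.p6), and 4 motifs were searched on both strands. The core of the ETS motif, CCGGAAG, stood in 19 of the 66 windows (28.8%), beside 8.86% of the 32851 windows of all genes. The NRF1 motif GCATGCGC stood in 7.58% of member windows and 2.71% of all, TATAAA in 9.09% and 13.6%, and the cyclic AMP response element TGACGTCA in 1 window (1.52%), that of Eef2, beside 1.79% of all. No motif contains another. Below are 90 bases, from 60 before to 30 after the start, for 3 members that fell and 1 that rose, shown so that starts with and without these motifs can be set side by side. Capitals mark the motifs. The first Eif4e2 window is given. The windows are chr10:81176571-81176660 on the plus strand for Eef2, chr5:31193110-31193199 on the minus strand for Eif2b4, chr1:87213851-87213940 on the plus strand for Eif4e2 and chr11:69672394-69672483 on the minus strand for Eif4a1.
Eef2: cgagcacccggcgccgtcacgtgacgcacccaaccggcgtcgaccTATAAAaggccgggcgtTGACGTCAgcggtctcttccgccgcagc
Eif2b4: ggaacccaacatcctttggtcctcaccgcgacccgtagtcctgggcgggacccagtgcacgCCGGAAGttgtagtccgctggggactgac
Eif4e2: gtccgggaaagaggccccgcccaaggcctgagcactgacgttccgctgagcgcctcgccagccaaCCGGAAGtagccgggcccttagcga
Eif4a1: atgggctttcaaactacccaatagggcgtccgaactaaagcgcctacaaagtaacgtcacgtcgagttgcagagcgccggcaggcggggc
Eef2 carries TATAAA and the cyclic AMP response element in this stretch, Eif2b4 and Eif4e2 each carry CCGGAAG just after the start printed, and Eif4a1 has no match. Eif4e2 has 3 start windows in RefSeq, and all 3 hold the same CCGGAAG, which lies before the start in the window chr1:87213879-87213968. Among other called members, Eif3b and Eif3k fell and Eef1akmt2, Eef1aknmt, Eef1e1, Eif2a and Pabpc4 rose, and none of these had a match in its 90 bases. Members that were not called also carried CCGGAAG there, such as Eef1b2 and Eif3l. A match in letters is a description and not a binding site.

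The members also differed between the library sets by 18S. In the 3 libraries with more 18S, against the 5 with less, 23 members did not overlap between the sets, 18 higher and 5 lower, which is 31.9% of the members beside 15.8% of all genes tested. Eif5b stood out, with 48258 to 101812 in the libraries with more 18S and 22752 to 26406 in the others, and its groups gave a log2 fold change of only -0.14 (SE 0.51, adjusted p = 0.877, limma). Other members higher with more 18S were Eif2b5, Eif2s2, Eif3a and Pabpc6, and the 5 lower ones were Eif5a, Eif4a2, Eif4ebp1, Eef1akmt1 and Paip2b. Some cell type markers also separated the 18S sets. With more 18S, Prm2, Odf1, Clu and Ctsl were lower and Sycp1, Sycp2 and Ccna1 higher. The part of such markers' cell types in the members' pattern was not tested. None of the 14 called members was among the 23, but this was fixed in advance. Their SKO and CTL values did not overlap, and each 18S set holds libraries of both groups, so they could not also separate the sets. Within the 5 libraries with less 18S, 11 of the 14 called members were called again, while Eef1akmt2 (0.53, adjusted p = 0.0595, limma), Eef1e1 (0.38, adjusted p = 0.0739) and Eif4e3 (0.63, adjusted p = 0.0665) were not. In that fit 32.2% of all genes tested were called, beside 19.9% in the main fit. Within the 3 libraries with more 18S, of which 1 is SKO and is assumed to vary like the others, Pabpc2 alone was called (-1.27, adjusted p = 0.0164, limma). A term for the 18S set, chosen after the data were seen, kept all 14 calls and added 9: Eif1ax, Eif2b3 and Eif4ebp1 higher, and Eif2b5, Eif2s1, Eif3c, Eif4g3, Eif5 and Pabpc6 lower in SKO. Calls rose over the whole table as well, to 29.4% of all genes tested from 19.9% in the main fit.

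**Figure D4:**
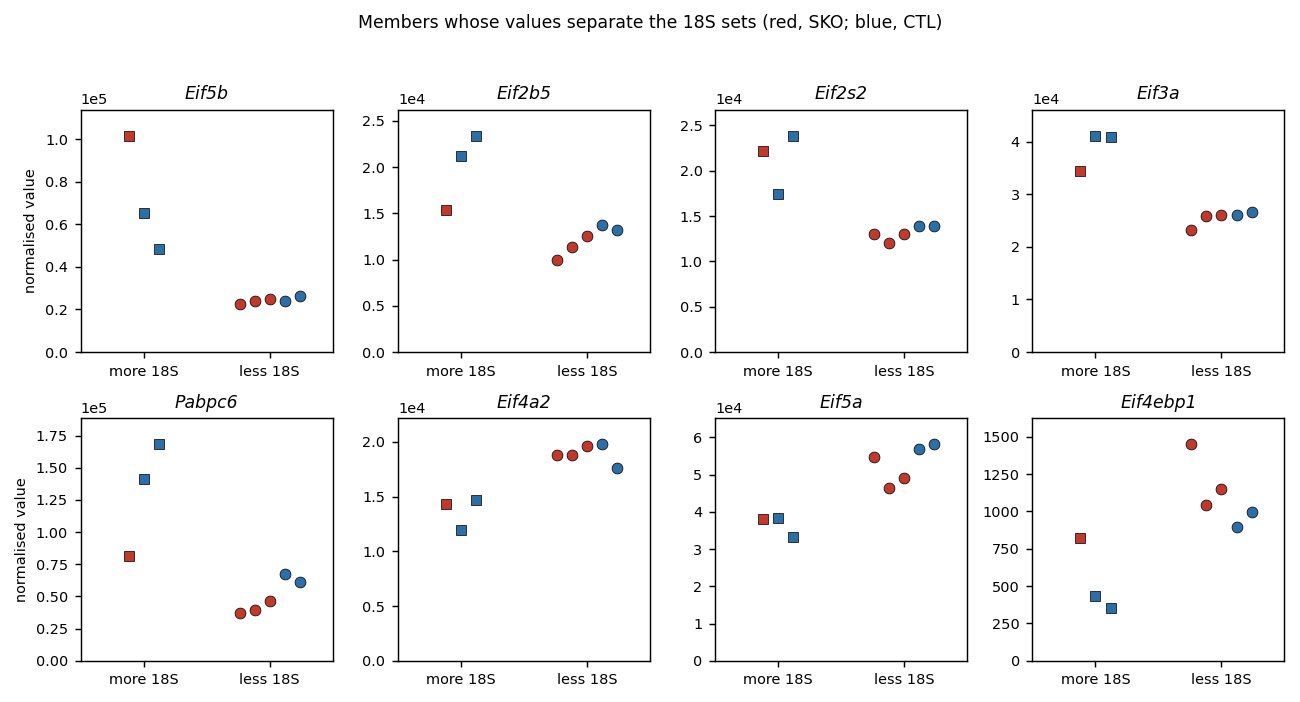
Normalised values (y axis, from 0) of 8 members, chosen after their values were seen, in the 3 libraries with more 18S and the 5 with less (x axis), with SKO in red and CTL in blue. Eif5b runs from 48258 to 101812 in the libraries with more 18S, above all of the others, and Eif5a, Eif4a2 and Eif4ebp1 run below them.

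The calls depended on single libraries. Pabpc2 was called in 20 of 21 other settings, Eif4e2 in 17, Eif3b and Pabpc4 in 16 each, and Eif4e3 in 8, and all 14 kept their direction in all 21. Without SKO library 3 no gene of the table was called (limma, smallest adjusted p = 0.0569), with 19 members and 4784 genes at an unadjusted p below 0.05. Without SKO library 1 or without SKO library 2, Pabpc2 and Pabpc4 were the only members called. Without CTL library 3 the called members were Pabpc2, Eif4e2, Eif3b and Eif2b4, and without CTL library 2 there were 6, all lower. Calls were fewer over the whole table as well. Of all genes tested, 7.52% were called without SKO library 1, 7.82% without SKO library 2 and 7.25% without CTL library 3. Without CTL library 2 the share was 13.5%, beside 19.9% in the main fit.

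**Figure D5:**
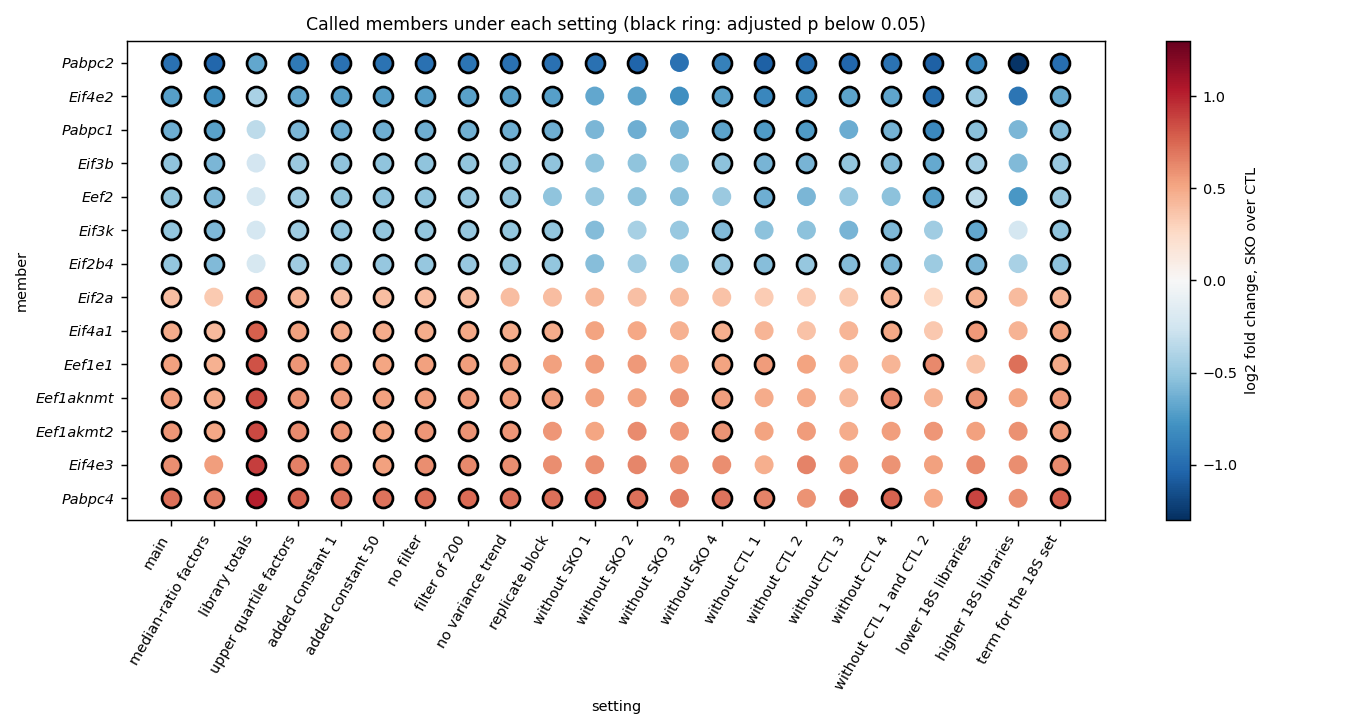
Log2 fold change of SKO over CTL (colour) of the 14 called members (rows) under the main setting and 21 others (columns), with a black ring where the adjusted p is below 0.05. Colours keep their side in every column, and the rings are fewest without SKO library 3, where there are 0.

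Of the other genes of the pathway, the integrated stress response list, which centres on phosphorylation of eIF2, had 4 of 17 genes called higher in SKO and none called lower, with a median of 0.50 beside 0.04 over all genes. For this list and those below, 11.9% of all genes tested were called higher and 7.93% lower. Gcn1, the activator of the kinase Gcn2, was lower in every SKO library and was not called (-0.92, adjusted p = 0.0542, limma), and it is named after its values were seen. The largest of the called genes were Ddit4, an inhibitor of mTOR signalling, at 1.23 (adjusted p = 0.0137, limma), and Ppp1r15a, which directs the removal of phosphate from eIF2, at 0.81 (adjusted p = 0.0284), whereas Atf4, whose translation rises in that response, was not called. The list of mTOR and MNK signalling had 2 of 16 higher, Rps6kb2 at 0.88 and Rheb at 0.65, and 2 lower, Mtor at -0.83 and Larp1 at -0.81. The other start-site helpers had 4 of 15 higher, led by Mcts1 at 1.08 and Ddx3y at 0.69, and 1 lower, Angel1 at -0.74. Germ cell mRNA storage had 2 of 15 higher, Cpeb1 at 0.67 and Dazl at 0.59, and 4 lower, led by Papolb at -0.78 and Boll at -0.73. Of the mitochondrial factors Guf1 was called, at 0.73, out of 7, and of 14 genes for modification of eEF and eIF5A none was called (limma, 4 at an unadjusted p below 0.05). The planned list of 15 also held Mettl13, which has no row under that name. Its row is the member Eef1aknmt, which was called higher (0.55, adjusted p = 0.0309, limma). Sertoli, spermatogonium and spermatocyte markers differed between the groups as given above, and their part in these lists was not tested.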

How the data were processed

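Mouse testis RNA was sequenced in 4 SKO and 4 CTL libraries, which were grouped by their titles. The submitters' processing notes name build mm10 and the tools featureCounts 1.5.0-p3, HISAT2 2.0.5, fastp and CASAVA, and how multiply mapped reads were treated is not stated there. The labels' protocols name a NEBNext Ultra kit that does not mark strand, so a read in 2 overlapping genes cannot be assigned by its strand. The authors deposited a score per gene and library: read counts times a factor per library, rounded to whole numbers, as read from the values. In 6 libraries gaps between values gave the factor, and in CTL libraries 1 and 2 it was read from value frequencies, so their depth is less certain. Depth was about 40600000 to 258000000 reads, and no row had a maximum under 95, so genes at lower levels are not seen.

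Values were scaled by trimmed means of M values (30% and 5% trims) written for this work, filtered at 25 in at least 4 libraries and fitted as log2(value + 5) with limma 3.58.1 in R 4.3.3, with a variance trend, two-sided. The design had foreseen this test if the table was not raw counts, and no count model was run because the values are not counts. Scaling and fit were tested on values simulated with the same independent noise for every gene. The simulation held no 18S or cell type differences, so it cannot show how the calls behave with them. Ratios within libraries were tested by exact permutation over 70 assignments. Exon lengths, overlaps and shared 50-base stretches came from GENCODE vM21, and start-site windows from RefSeq. Libraries were set apart by an 18S share of at least 0.5%.

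Named were all called members, the member with the highest mean value in each role class, a set list of factors and the genes of 9 pairs. Other genes named for their overlap or 18S pattern were chosen after their values were seen. The members and lists were chosen with earlier results of these data known. Alternatives covered scaling, the added constant, the filter, the variance trend, a replicate block, left-out libraries and the 18S sets.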

Additional observations from a re-analysis of the deposited data

Results flagged for a closer look

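In 12 of 144 checks of 1 member in 1 group of 4 libraries, a single library lay far from the other 3, and chance gives about 1 in 20. SKO library 4, one of the libraries with more 18S, was the far one 5 times: Eif5b had 101812 there and 22752 to 25057 in the other SKO libraries, Eif2s2 22189 and 12030 to 13064, Eif2s1 12399 and 15470 to 15639, Eif4a2 14335 and 18766 to 19640, and Eif3b 53505 and 51724 to 52020. SKO library 1 was far off for Eef1d, at 39303 with 21108 to 24052 in the others, and for Paip2, at 12859 with 8918 to 9472 in the others. Eef1b2 had 9930 in SKO library 3 and 7999 to 8106 in the others.

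Among CTL libraries, Eif3j1 had 3427 in CTL library 3 and 4881 to 5063 in the others, and Eif5a2 had 2190 there and 2939 to 3016 in the others. Eif2s3x had 2104 in CTL library 4 and 927 to 994 in the others. The pseudogene row Eef2-ps2 had 840 in CTL library 1 and 1059 to 1104 in the others. Of these 12 results, Eif3b alone is among the called members, and its far library differs little in size.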

How the results depend on the processing

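The 14 called members kept their direction in all 21 alternatives, and of 756 estimates of the 36 named genes 39 changed sign where neither value was called. Counts of called members and of all genes moved by less than 1.5 times with median-ratio or upper quartile factors, the other added constants (1 and 50), no filter, a filter of 200 or no variance trend. With library totals, 13 members rose and 2 fell, 4885 genes rose and 456 fell, and the members' median was 0.18, where that of all genes was 0.33. Without CTL libraries 1 and 2 together, 4 members rose and 12 fell, 2322 genes fell, and the members' median was -0.24. Within the libraries with less 18S, 12 members fell, 3194 genes rose and 2283 fell, and within those with more 18S 0 members rose and 1 fell, 51 genes rose and 287 fell. A term for the 18S set gave 13 members lower and 2210 genes lower. Leaving out 1 library gave 0 to 6 members higher, 0 to 8 lower, 0 to 2455 genes higher, 0 to 1526 genes lower and a members' median between -0.19 and -0.07. The lowest counts came without SKO library 3, where limma called none (4784 genes at an unadjusted p below 0.05). The cause of these changes was not tested, though each such fit has fewer libraries.

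Same-numbered libraries did not all deviate together (correlations of 0.673, 0.0119, 0.082 and 0.231), and not every library correlated best with its own number. The values thus gave no ground to pair libraries by number, and whether the numbers mark pairs is not known. With the replicate block 13 members were called, 4 higher and 9 lower, and 9 of these 13 are among the 14. In that fit 22.6% of all genes tested were called, 2162 higher and 1701 lower, beside 19.9% in the main fit. Depth limits the rarest members: Eif4e1b had as few as 17 reads in a library and Pabpc1l 25, while the called members had at least 124.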

Other observations

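Several abundant members varied within the groups in a like order of libraries. Eef1d, an exchange factor for eEF1A, had 39303, 22343, 21108 and 24052 in SKO libraries 1 to 4 and 40934, 53310, 32238 and 13683 in CTL libraries 1 to 4. Eif1, which guards start codon choice, had 42246, 23875, 28159 and 26808 in SKO and 38521, 37086, 23946 and 16667 in CTL. Eef1g, another subunit of the exchange factor, had 35118, 29832, 29638 and 23984 in SKO and 39882, 42932, 30676 and 25248 in CTL. In all 3 genes SKO library 1 and CTL libraries 1 and 2 were high and CTL library 4 was lowest of its group, while the groups overlapped. The members Eif5a, Eif4ebp1 and Eif2b4 had this order of libraries too. Of these, Eif2b4 was called, and its groups did not overlap. Summed elongating spermatid markers followed the same order of libraries, at 587212, 171961, 167305 and 153295 in SKO and 563190, 693430, 237856 and 80232 in CTL, as did 10 of the 10 markers one by one, such as Prm2 with 89960, 14871, 20003 and 12906 in SKO and 71966, 94716, 12635 and 3045 in CTL. So did 8 of 10 round spermatid markers. Their part in the variation of the 3 genes was not tested. These genes were picked after their values were seen, and Eif1 and Eef1g share 31.6% and 64.3% of their 50-base stretches with other genes.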
